A study of Saccharomyces cerevisiae with 16 samples.

Results

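OYE2 and OYE3 encode the old yellow enzymes of budding yeast, and their transcripts were followed across an untreated control and 3 chemical treatments. The genes were taken by name, each through the brightest probe set that the platform annotation gives it, so 2 of the 5404 genes tested are described. Each gene had 1 probe set on the array, 1777048_at for OYE2 (YHR179W) and 1775331_at for OYE3 (YPL171C), and both varied across the arrays.

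The cells were wild-type BY4741, a haploid laboratory strain of mating type a that lacks URA3, LEU2 and MET17 and part of HIS3 in every group, the control included. They grew in a rich glucose medium (yeast extract, peptone and dextrose) at 30 °C with shaking at 250 rpm and were sampled in early exponential phase. The groups were acrolein at 0.05 mM, H2O2 at 0.3 mM and NEM at 0.016 mM, each for 1 h, and untreated cells, with 4 arrays each and 16 in all. NEM, given only by its abbreviation, is taken to be N-ethylmaleimide, an imide that reacts with thiols. Acrolein is a small aldehyde with a conjugated double bond, and H2O2 is an oxidant without one. No label places the arrays of a group in separate cultures, so p-values cover only array-to-array spread, part or all of which may be technical.

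Old yellow enzymes carry flavin mononucleotide (FMN) and use NADPH to reduce the carbon-carbon double bond of alpha,beta-unsaturated aldehydes, ketones and related compounds. Acrolein and maleimides belong to the kinds of molecule that such enzymes can reduce. In yeast, Yap1 is the transcription factor best known for raising oxidant-defence genes, and its cysteines respond to peroxide and to thiol-reactive compounds.

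The strain and the arrays were checked first. The file's floor is 1.92 on the log2 scale, and URA3 and MET17 sat there on all 16 arrays and LEU2 on 15 of 16. HIS3 read 11.06 to 12.27 and gave no check. The mating type a genes MFA1, MFA2 and STE2 read 12.44 to 13.50, and of the alpha genes MFALPHA1 and MFALPHA2 stayed at or under 2.97 while STE3 read 4.44 to 7.59. Background is taken here as 5.15, the highest value of the 1747 probe sets whose annotated gene was taken to be of another yeast. Probe sets without a name did not enter this limit. Acrolein replicate 1 stood apart, with a ribosomal RNA signal of 15.48 against 4.38 to 12.64 on the other 15 arrays, and a 3′ minus 5′ signal of 1.20 against 0.60 to 0.78. The lowest ribosomal RNA signal, 4.38, was that of H2O2 replicate 4. Without these 2 arrays OYE3 differed from the control by 8.71 after acrolein and 7.85 after H2O2, and OYE2 by 1.42 and 0.47.

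OYE3 was higher after every treatment, by 222 to 449.9 fold, and OYE2 by 1.39 to 3.16 fold. OYE3 read 15.37, 15.47, 15.36 and 15.68 after acrolein on the log2 scale of the GCRMA signal. After H2O2 it read 14.55, 14.75, 14.61 and 14.42, and after NEM 15.67, 15.64, 15.55 and 15.55. The control arrays read 7.28, 6.25, 6.67 and 6.96. Every treated array lay above every control array, with no intermediate value, and all 4 control arrays were above the background limit. The alpha gene STE3 averaged 7.10 ± 0.59 (SD) in the control of this mating type a strain, within the OYE3 control range. Whether part of the OYE3 control signal is non-specific was not tested, and the folds take that signal as measured.

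**Figure D1:**
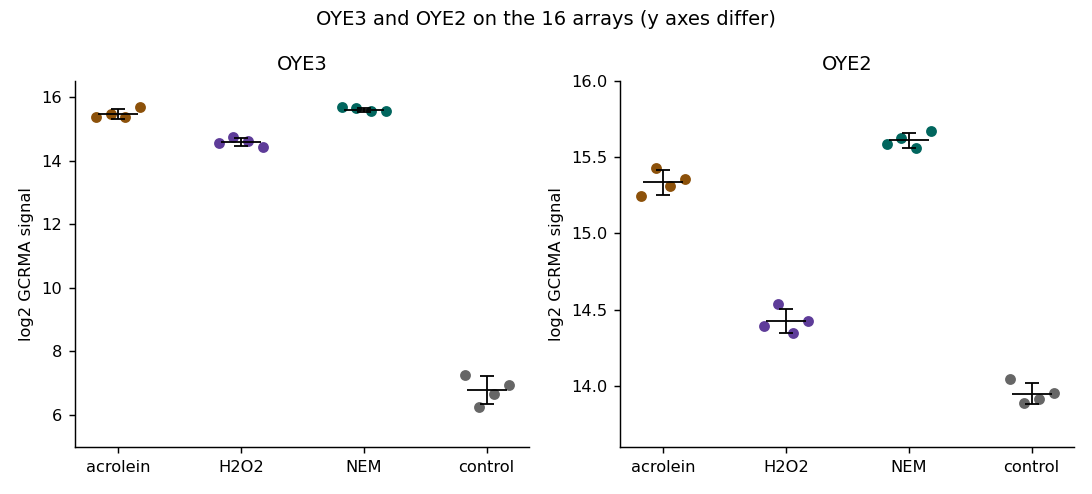
Log2 GCRMA signal of OYE3 (left) and OYE2 (right) on each array by group, with points for arrays in replicate order, black bars for the mean and whiskers for 1 SD (n = 4). OYE3 lies between 6.25 and 7.28 in the control and at 14.42 or above in each treated group, and OYE2 spans 13.89 to 15.67 over all arrays, on a narrower y axis.

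OYE3 averaged 15.47 ± 0.15 after acrolein, 14.58 ± 0.14 after H2O2, 15.60 ± 0.06 after NEM and 6.79 ± 0.43 in the control (SD, n = 4 each). Its spread was widest in the control, where the lowest and highest arrays were 1.02 apart. Acrolein raised it by 8.68 ± 0.16 (SE), a 410.1-fold increase with a 95% interval of 321 to 524 (limma adjusted p = 1.96e-13). H2O2 raised it by 7.79 ± 0.16, or 222-fold with an interval of 174 to 284 (limma adjusted p = 6.03e-13). NEM raised it by 8.81 ± 0.16, or 449.9-fold with an interval of 352 to 575 (limma adjusted p = 2.05e-13). The 3 differences share the control arrays.

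OYE2 had a high signal before any treatment. It read 15.24, 15.43, 15.31 and 15.36 after acrolein, and 14.39, 14.54, 14.35 and 14.43 after H2O2. After NEM it read 15.59, 15.62, 15.56 and 15.67, and in the control 14.04, 13.89, 13.92 and 13.95. None of the 4 groups overlapped another, and the H2O2 arrays lay nearest to the control arrays. The share of all probe sets separated in this way was counted only for the comparisons with the control.

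For OYE2 the means were 15.33 ± 0.08 after acrolein, 14.43 ± 0.08 after H2O2, 15.61 ± 0.05 after NEM and 13.95 ± 0.07 in the control (SD, n = 4 each). The rise was 1.39 ± 0.05 (SE) after acrolein, a 2.61-fold increase with a 95% interval of 2.42 to 2.82 (limma adjusted p = 6.5e-11). After H2O2 it was 0.48 ± 0.05, or 1.39-fold with an interval of 1.29 to 1.50 (limma adjusted p = 1.22e-05). After NEM it was 1.66 ± 0.05, or 3.16-fold with an interval of 2.93 to 3.41 (limma adjusted p = 9.76e-12).

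Both genes were thus called higher in all 3 comparisons with the control, at an adjusted p under 0.05. Such calls covered 27.2% of the 5774 probe sets tested after acrolein, 9.25% after H2O2 and 26.4% after NEM. Complete separation, with 4 treated arrays above 4 control arrays, was seen in 24.6% of probe sets with acrolein, in 10.8% with H2O2 and in 24.4% with NEM. A higher call was thus common among all probe sets, and the place of each gene in the order of increases is given next. OYE3 had the second largest increase of 5404 genes in each comparison. The gene above it was FRM2, a nitroreductase-like gene, after acrolein (9.73) and after NEM (10.54), and YHK8, a predicted drug transporter, after H2O2 (8.15). Just below it came YHK8 after acrolein (8.49) and NEM (8.31), and SRX1, sulfiredoxin, after H2O2 (6.04). The control arrays of FRM2 and YHK8 were all within background, so their order against OYE3 is not fixed by these values. A larger increase than that of OYE2 was found for 208 genes after acrolein, 331 after H2O2 and 93 after NEM.

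**Figure D2:**
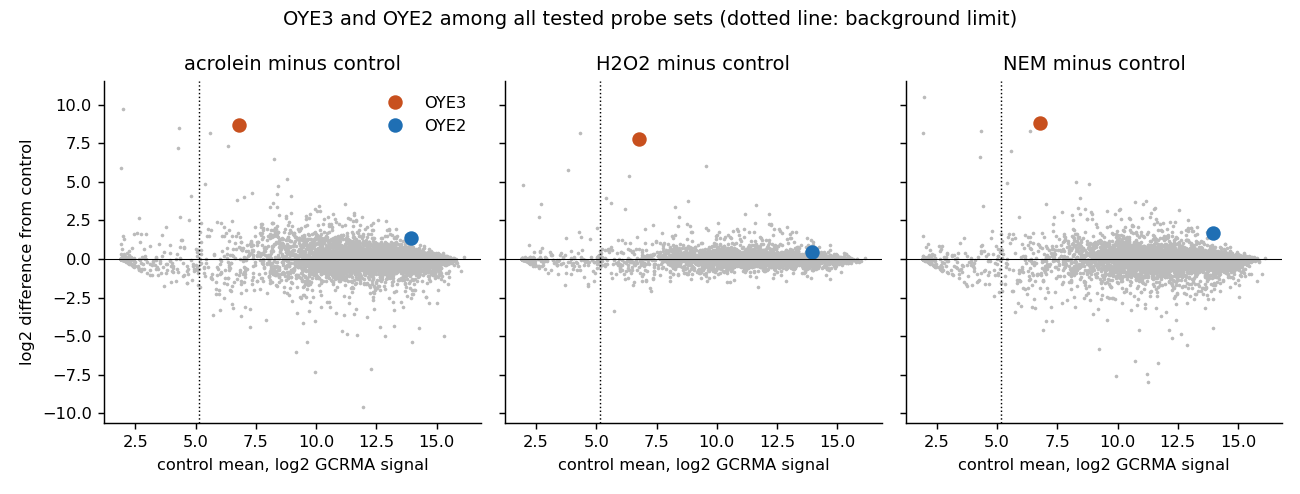
Log2 difference from the control against the control mean for the 5774 tested probe sets (grey), 1 panel per treatment, with OYE3 and OYE2 in colour and the background limit of 5.15 as a dotted line. OYE3 sits at a control mean of 6.79 above nearly all other probe sets, and OYE2 at 13.95, where the cloud narrows.

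The paralogs changed by very different amounts. On each array OYE2 was subtracted from OYE3, and this within-array value was compared between groups, which sets one change against the other and does not compare the levels. The OYE3 change exceeded the OYE2 change by 7.29 log2 units after acrolein, 7.32 after H2O2 and 7.15 after NEM. The intervals from the exact permutation test, which cover 97.1%, ran from 6.80 to 7.96, from 6.76 to 7.90 and from 6.65 to 7.71. As ratios of the fold changes the values are 157, 159.7 and 142. Each had an exact permutation p of 0.0286 (two-sided, n = 4 per group, the smallest this design allows), and 0.0286 after adjustment over the 3 treatments. Paired by replicate number, the exact sign-flip p was 0.125 for each, the smallest that 4 pairs allow.

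The treatments also differed from each other. From highest to lowest the OYE2 means ran NEM, acrolein, H2O2 and control, and each neighbour differed from the next. The OYE3 means ran in the same order, but those of NEM and acrolein did not differ beyond their spread. Acrolein exceeded H2O2 by 0.91 ± 0.05 for OYE2 (SE, n = 4 per group, limma adjusted p = 9.37e-09) and by 0.89 ± 0.16 for OYE3 (limma adjusted p = 0.000514). NEM exceeded H2O2 by 1.18 ± 0.05 for OYE2 (limma adjusted p = 5.98e-10) and by 1.02 ± 0.16 for OYE3 (limma adjusted p = 0.000154). Calls in these directions covered 26.0% of probe sets for acrolein over H2O2 and 25.1% for NEM over H2O2. Doses differed between the compounds, so these values do not rank their potency.

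Acrolein and NEM were set against each other in the same way. OYE2 was lower after acrolein than after NEM by 0.28 log2 units (-0.28 ± 0.05, SE, n = 4 per group, limma adjusted p = 0.000609), and 25.8% of probe sets were called in that direction. OYE3 differed by -0.13 ± 0.16, with a 95% interval of -0.49 to 0.22 (limma adjusted p = 0.527), and acrolein replicate 4, at 15.68, was above all NEM arrays. With arrays paired by replicate number, OYE2 was lower after acrolein in 4 of 4 pairs, by values from -0.34 to -0.19, while OYE3 was higher in 1 of 4, from -0.30 to 0.14. How many probe sets keep the same direction in every pair was not counted. The standard error of OYE3 includes the wide spread of its control arrays. With the acrolein and NEM arrays fitted alone its adjusted p was 0.205 (limma).

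**Figure D3:**
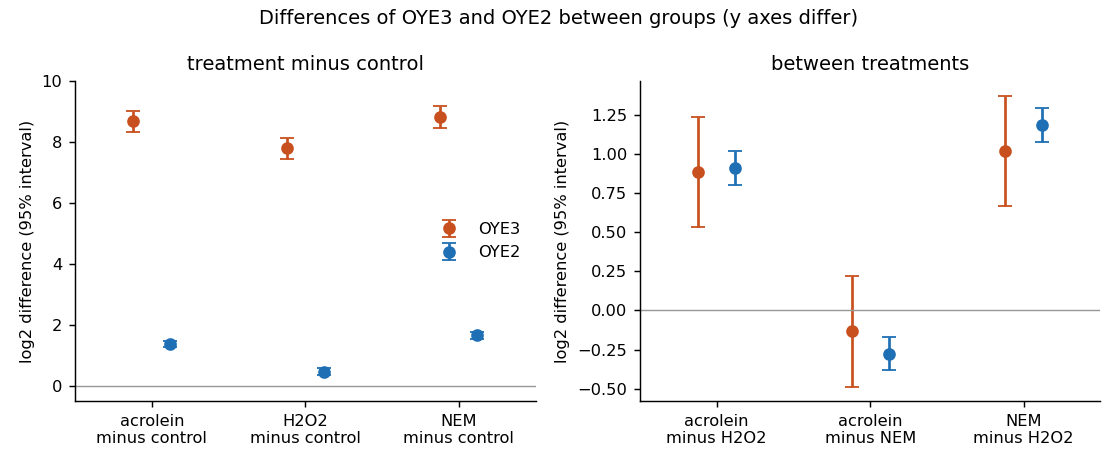
Log2 differences of OYE3 and OYE2 with 95% intervals from the fit, for each treatment minus control (left) and between treatments (right, narrower y axis). OYE3 stands at 7.79 to 8.81 and OYE2 at 0.48 to 1.66 against the control, whereas between treatments the points of both genes lie within 0.17 of each other.

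Between treatments the changes of the paralogs were close. The OYE3 difference minus the OYE2 difference was -0.02 for acrolein against H2O2, 0.14 for acrolein against NEM and -0.17 for NEM against H2O2. The intervals from the exact permutation test ran from -0.23 to 0.34, from -0.05 to 0.45 and from -0.39 to 0.09. The exact permutation p was 0.8, 0.114 and 0.114 (two-sided, n = 4 per group), and 0.8, 0.171 and 0.171 adjusted over these 3 comparisons, which were added after the values were seen. These p-values do not show that the genes respond alike.

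The signal range bears on these sizes. On the acrolein and NEM arrays both genes lay close to the top of the scale, 0.44 to 0.98 below the highest value of the same array, against 2.06 to 2.28 for OYE2 and 8.83 to 9.91 for OYE3 on the control arrays. Whether signals near the top are compressed was not tested. The genes are close paralogs, and probe sequences were not used here. On the control arrays the OYE3 probe set stayed at 6.25 to 7.28 while the OYE2 probe set read 13.89 to 14.04. Whether either probe set also reads the transcript of the other gene was not tested. The OYE3 folds take its control signal as that of OYE3 alone.

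Genes with the most similar treatment profile were found by the root mean square of the gaps between their 3 differences from the control and those of each paralog. For OYE3 the nearest gene by the measured values was YHK8, at a distance of 0.37 log2 units, with 12.81 ± 0.17 after acrolein, 12.47 ± 0.22 after H2O2, 12.63 ± 0.07 after NEM and 4.32 ± 0.19 in the control (SD, n = 4). Because its control arrays were all within background, YHK8 was at least 203-fold higher after acrolein, at least 159.7-fold after H2O2 and at least 179-fold after NEM. The distances of YHK8 and FRM2, 0.37 and 2.08, take their control values as measured within background and are therefore not fixed. FRM2 was at least 94.2-fold, 3.12-fold and 165-fold higher after the same treatments. YLR460C and YCR102C, open reading frames of the quinone oxidoreductase-like kind, came next at 2.63 and 3.59, and YKL070W at 3.82. Their H2O2 differences were 3.65 for YLR460C, 3.39 for YCR102C and 1.73 for YKL070W, all below the 7.79 of OYE3. The control mean of YKL070W, 4.28, was also within background.

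OYE2 had closer neighbours. RRP12, a ribosome assembly and export factor, lay at a distance of 0.02, RRG9, a mitochondrial genome maintenance gene, at 0.12, and ECM16, a helicase of small-subunit assembly, at 0.13. SLM5, the mitochondrial asparaginyl-tRNA synthetase, lay at 0.13 and ENP1, another small-subunit assembly factor, at 0.15. RRP12 differed by 1.36 ± 0.41 after acrolein, 0.47 ± 0.41 after H2O2 and 1.68 ± 0.41 after NEM (SE), a wider error than the 0.05 of OYE2, and its H2O2 difference did not pass (limma adjusted p = 0.469). Of the 5, RRG9 and SLM5 were called higher in all 3 comparisons. The distance between OYE2 and OYE3 was 7.26. OYE3 stood at place 5401 of 5403 genes in nearness to OYE2, while OYE2 stood at place 123 in nearness to OYE3. OYE3 rose more than nearly all genes after each treatment, so it lies far from any gene with a small change. Its place is thus not specific to the paralog pair. How close the neighbours of other genes with changes of the OYE2 size lie was not tested.

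**Figure D4:**
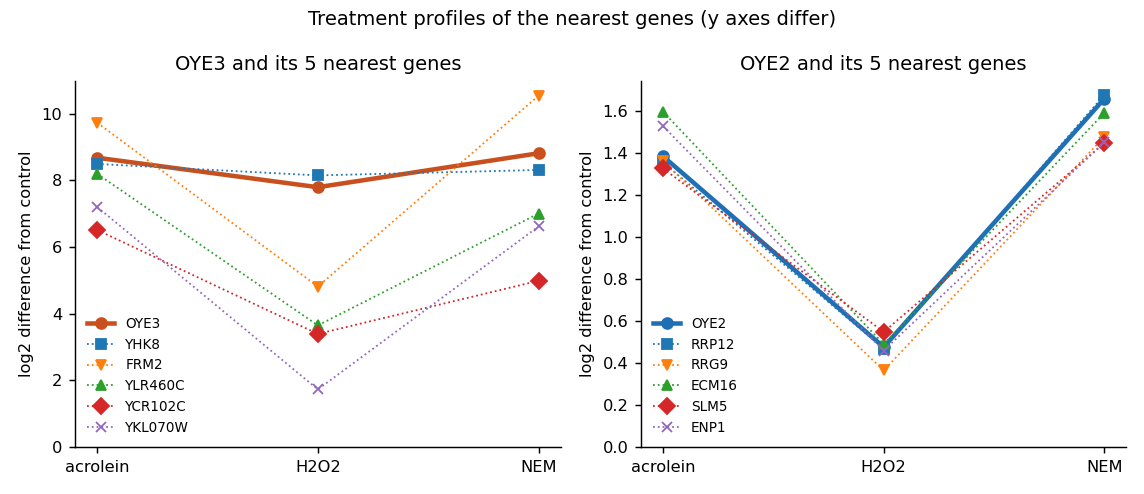
Log2 difference from the control after each treatment for OYE3 (left) and OYE2 (right) with their 5 nearest genes, on different y axes, where lines only join the values of a gene. YHK8 runs from 8.15 to 8.49 beside OYE3 at 7.79 to 8.81, and the other neighbours of OYE3 have lower H2O2 values, at 1.73 to 4.81.

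Most listed Yap1 targets were called higher, as OYE2 and OYE3 were. Whether OYE2 and OYE3 are themselves Yap1 targets was not tested. Of 14 listed targets 12 were called higher and none lower after acrolein, 14 higher after H2O2 and 14 higher after NEM, with median differences of 1.58, 1.20 and 1.83 against -0.05, -0.02 and -0.01 over all probe sets. Over all probe sets 27.2% were called higher after acrolein, 9.25% after H2O2 and 26.4% after NEM. Calls of a lower level covered 36.9%, 10.6% and 32.2% after these treatments. The efflux pump gene ATR1 rose by 5.17 ± 0.14 after acrolein, 3.74 ± 0.14 after H2O2 and 4.85 ± 0.14 after NEM (SE). GTT2, a glutathione transferase, rose by 3.58, 2.94 and 3.75, and FLR1, a drug transporter, by 2.99, 1.16 and 3.34. SRX1 was highest after H2O2, at 6.04, against 2.59 after acrolein and 3.12 after NEM. GPX2, a glutathione peroxidase, rose by 2.54, 3.53 and 2.41. None of the 14 changed as much as OYE3 in any comparison with the control. A larger increase than that of OYE2 was seen for 8 after acrolein, 10 after H2O2 and 8 after NEM.

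Other reductases of carbonyls, enones and quinones were called in both directions. Of 21 listed genes 9 were called higher and 6 lower after acrolein, 11 and 1 after H2O2, and 11 and 4 after NEM, with medians of 0.06, 0.31 and 0.34. Over all probe sets 27.2% were called higher and 36.9% lower after acrolein, 9.25% and 10.6% after H2O2, and 26.4% and 32.2% after NEM. Calls in both directions were thus general. The lower calls of this list were no more frequent than elsewhere, and its higher calls were more frequent after each treatment. The list was chosen with earlier results of these data known, and no set test was run. YLR460C and YCR102C had the largest differences among called members whose control arrays were not all within background, as given above. FRM2 has only the lower bounds given above, and after H2O2 its bound of 3.12-fold does not fix its place. GRE2, a methylglyoxal reductase, differed by 2.46 ± 0.09 after acrolein, 2.06 ± 0.09 after H2O2 and 2.55 ± 0.09 after NEM. GRE2 is also on the list of Yap1 targets. LOT6, an FMN-dependent quinone reductase, went the other way, at -1.59 ± 0.14 after acrolein and -3.15 ± 0.14 after NEM, and differed by 0.02 after H2O2 (limma adjusted p = 0.978). No member with a control level above background had a larger increase than OYE3, and the order of FRM2 against OYE3 is not fixed.

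Genes that supply NADPH, the cofactor of the old yellow enzymes, were called in both directions after acrolein and NEM, as probe sets in general were. Of 12 listed genes 4 were called higher and 6 lower after acrolein, 4 higher and none lower after H2O2, and 5 higher and 5 lower after NEM, with medians of -0.22, 0.08 and -0.08. The shares over all probe sets were 27.2% higher and 36.9% lower after acrolein, 9.25% and 10.6% after H2O2, and 26.4% and 32.2% after NEM. GND2, a 6-phosphogluconate dehydrogenase, rose by 2.38 ± 0.14 after acrolein and 2.16 ± 0.14 after H2O2, but differed by -0.07 ± 0.14 after NEM (limma adjusted p = 0.737). POS5, the mitochondrial NADH kinase, rose by 0.78 ± 0.08 after acrolein and 0.90 ± 0.08 after NEM. GND1, the major isoform, rose by 0.16, 0.88 and 0.17. The isocitrate dehydrogenase genes IDP2 and IDP3 differed by -3.11 and -2.04 after acrolein and by -3.18 and -2.25 after NEM, and neither was called after H2O2 (-0.27 and -0.25). ZWF1, which starts the pentose phosphate pathway, rose by 0.49 ± 0.12 after NEM, and was not called after acrolein (-0.20 ± 0.12) or H2O2 (0.30 ± 0.12); it was picked after its values were seen.

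Of the genes for FMN, the flavin of these enzymes, RIB1, RIB3 and RIB5 were higher after every treatment. Of 8 riboflavin, FMN and FAD synthesis genes 4 rose and 3 fell after acrolein, 3 rose and 1 fell after H2O2, and 4 rose and 2 fell after NEM, with medians of 0.16, 0.06 and 0.25. Beside the array-wide 36.9% lower after acrolein, 10.6% after H2O2 and 32.2% after NEM, and 27.2%, 9.25% and 26.4% higher, counts this small say little about the list. RIB1, the first enzyme of riboflavin synthesis, rose by 1.14 ± 0.06 after acrolein, 0.78 ± 0.06 after H2O2 and 1.10 ± 0.06 after NEM. RIB3 rose by 0.84, 0.53 and 0.79, and RIB5 by 0.31, 0.21 and 0.73. FMN1, riboflavin kinase, which makes FMN, was lower after acrolein (-0.60) and NEM (-1.06), and differed by 0.03 after H2O2 (limma adjusted p = 0.708). RIB4, lumazine synthase, was lower in all 3 comparisons, at -0.39, -0.22 and -1.005, but its H2O2 call ended without H2O2 replicate 2, 3 or 4 or control replicate 2.

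Among transcription factors of the oxidant and stress responses, 6 of 12 rose and 3 fell after acrolein, 5 rose and none fell after H2O2, and 8 rose and 3 fell after NEM, with medians of 0.17, 0.18 and 0.56. All probe sets were called higher in 27.2%, 9.25% and 26.4% of cases after these treatments and lower in 36.9%, 10.6% and 32.2%. The 3 lower calls after acrolein and after NEM were below the share of lower calls. The higher calls were above their share after each treatment, in a list chosen with earlier results known. YAP1 itself differed by 0.08 ± 0.16 after acrolein (limma adjusted p = 0.683), and rose by 0.86 ± 0.16 after H2O2 and 0.91 ± 0.16 after NEM. YRR1, a regulator of multidrug resistance genes, rose by 2.95 ± 0.08 after acrolein, 0.70 ± 0.08 after H2O2 and 3.67 ± 0.08 after NEM. YAP7, another member of the Yap family, rose by 2.17, 2.04 and 2.08. STB5, a factor for NADPH-producing genes under oxidative stress, was lower after acrolein (-0.75) and NEM (-0.57), and stood 0.20 ± 0.08 higher after H2O2 (limma adjusted p = 0.0821). MSN4, of the general stress response, was lower after acrolein (-0.60) and NEM (-1.47).

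**Figure D5:**
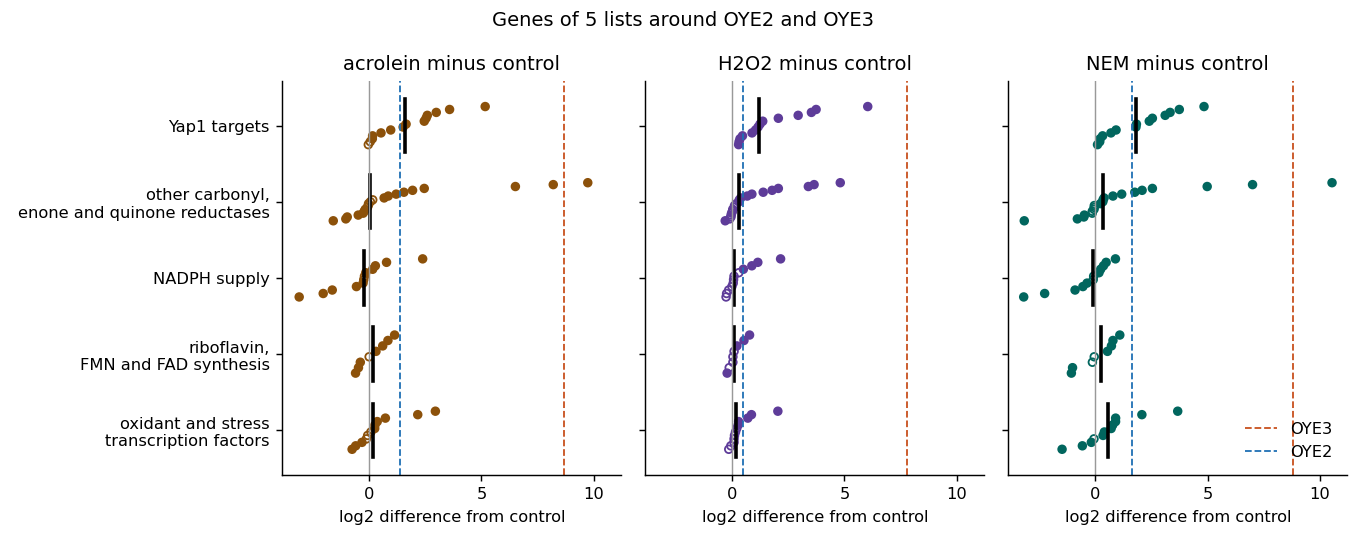
Log2 difference from the control for each gene of 5 lists, 1 panel per treatment, with filled points for genes called at adjusted p under 0.05, open points for the rest, black bars for list medians and dashed lines for OYE3 and OYE2. The Yap1 targets lie at or right of about 0, with medians of 1.20 to 1.83, and the other lists spread to both sides.

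ACT1, the actin gene, lay 0.08 ± 0.05 from the control after acrolein, 0.02 ± 0.05 after H2O2 and 0.15 ± 0.05 after NEM (SE), the last with a limma adjusted p of 0.0188. All 3 were smaller than the matching OYE2 differences, of which the smallest was 0.48.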

How the data were processed

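The authors deposited log2 values made with GCRMA, which corrects background and summarises each probe set; GCRMA is named in the submitters' processing notes, with its version not given in the sources used here. Biotin-labelled RNA from 8 µg was hybridised, per the labels. The deposited log2 values were used without further scaling. Of 10928 probe sets, 213 control and reporter and 1747 other-yeast probe sets were left out, as were constant ones. Names came from the platform annotation and a RefSeq gene table (R64), with 12 symbols updated. Of several probe sets per gene the brightest was kept, which left 5774, of which 5404 are named genes and 370 have no name. The species of those 370 was not checked.

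Groups came from sample titles. All 16 arrays entered 1 limma 3.58.1 fit (R 4.3.3) with a mean per group and 12 residual degrees of freedom, tested on simulated data. Benjamini-Hochberg adjustment ran over all 5774 probe sets within a comparison, two-sided. Exact permutation tests used scipy 1.17.1. The number of arrays limits the precision. Where a group lies within background, folds are bounds against 5.15.

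Replicate numbers were checked for pairing through the correlation of residuals with the same number. It was 0.20 to 0.45 for acrolein and control, 0.32 to 0.56 for NEM and control and 0.32 to 0.44 for acrolein and NEM. For H2O2 replicates 1 and 2 it was below 0 with every other group. For H2O2 replicates 3 and 4 it was 0.39 to 0.69 with the other groups. Replicate 4 also had the lowest ribosomal RNA signal of each group, at 8.75 (control), 9.20 (acrolein), 4.38 (H2O2) and 9.23 (NEM). The main fit and the exact permutation tests did not pair the arrays. Pairing by number entered only the replicate block, the sign-flip test and the differences given by pair. The block and the sign-flip test covered H2O2 as well.

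The genes and lists were chosen with earlier results of these data known. Named are OYE2, OYE3, the 5 nearest genes of each, the genes next to OYE3 in size, the strain genes and ACT1, and a selection of the 4 called members per list and treatment with the largest change. SOL3, SOL4, YEF1, RIB2 and RPN4 also met this rule and are not described. ZWF1 lies outside this rule. Promoter and protein sequences were not analysed here.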

Additional observations from a re-analysis of the deposited data

How the results depend on the processing

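The 12 differences of OYE2 and OYE3 were recomputed under 26 alternatives: quantile normalization, centring on array medians, array weights, a replicate block, a robust prior with a trend, fits of only the pair of groups compared, a mean signal over 6, averaged probe sets, named genes alone (added after seeing the data), acrolein replicate 1 and H2O2 replicate 4 left out, and each array left out in turn. All 312 values kept their direction and their side of the threshold. The replicate block, the prior, the fits of compared groups, the signal limit, averaged probe sets and named genes alone cannot move a difference. Leaving out arrays of other groups does not move it either. In these fits only the adjusted p could change, so the count overstates how far the direction was tested. OYE3 ran from 8.50 to 8.98 after acrolein, 7.62 to 8.06 after H2O2 and 8.64 to 9.07 after NEM, and OYE2 from 1.35 to 1.42, 0.44 to 0.51 and 1.64 to 1.69. The OYE2 difference between acrolein and NEM ran from -0.31 to -0.24, with adjusted p up to 0.0045, and that of OYE3 from -0.21 to -0.09, with adjusted p from 0.205 to 0.785 (limma).

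The excess of the OYE3 change over the OYE2 change ran, with 1 array left out, from 7.14 to 7.43 after acrolein, 7.16 to 7.45 after H2O2 and 6.996 to 7.28 after NEM. With the replicate block the values were the same, 7.29, 7.32 and 7.15, with an exact sign-flip p of 0.125, which 4 pairs cannot pass. Between acrolein and H2O2 the small value of -0.02 became 0.00203 after quantile normalization, and ran from -0.0890 to 0.0115 with 1 array left out. Of 780 list counts 774 stayed within 1.5 times. The 1 call of a lower riboflavin gene after H2O2, that of RIB4, ended without H2O2 replicate 2, 3 or 4, without control replicate 2, and without acrolein replicate 1 and H2O2 replicate 4 together, and this last fit called 1 transcription factor lower after H2O2, against none. Of the 5 nearest genes 4 stayed for each paralog after quantile normalization, and 4 for OYE2 and 3 for OYE3 over 6 comparisons.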

Other observations

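No group of 4 arrays held an outlying value of OYE2, OYE3 or their difference: the largest share of a group's range taken by the gap to 1 array was 0.688, for OYE3 minus OYE2 after acrolein, under the critical value of Dixon's test.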
